A study of Rattus norvegicus with 6 samples.

Results

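The genes described here are 10 members of the metalloprotease system of the kidney: the matrix metalloproteases Mmp2, Mmp9, Mmp14 and Mmp24, the ADAM proteases Adam10, Adam15 and Adam17, and the tissue inhibitors of metalloproteases Timp1, Timp2 and Timp3. They were taken as every probe set whose single gene symbol in the array annotation is one of these names, which gave 20 probe sets of 31042 and 10 of 14217 named genes. Where a gene had several probe sets, the main value is that of the probe set with the highest mean signal over the 6 arrays, and the others served as a check. Of the 10 genes, 7 are proteases and 3 are inhibitors.

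Kidney RNA came from 3 S rats, the inbred Dahl salt-sensitive strain (SS/Jr), which is prone to high blood pressure, and from 3 rats of the congenic strain S.LEW(D1MCO4x1x3Bx1), in which a segment of chromosome 1 comes from the Lewis rat on the S background. All were adult males with 1 Affymetrix array each, and the labels used here give no diet, exact age or treatment. By its title the series belonged to work on inherited hypertension and Adamts16, which encodes a secreted metalloprotease. None of the 10 genes described here lies on chromosome 1 in the GRCr8 gene table.

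Matrix metalloproteases are zinc enzymes that cut collagens, laminins and other proteins of the extracellular matrix. ADAM proteases sit in the cell membrane and release the outer parts of growth factors, receptors and adhesion proteins, a process called shedding. TIMPs bind the catalytic zinc site and block these enzymes, so that the balance of protease and inhibitor bears on how fast basement membranes are turned over in the glomerulus and tubule.

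The values are scaled signals on a linear scale, given as mean ± SD over 3 rats. The labels name an animal for each array and say nothing more about how the rats were kept or paired. The median signal per array was 162 to 178. All 7 proximal tubule markers, all 5 markers of the thick ascending limb and distal tubule and all 6 collecting duct markers lay above the filter on low signals, a geometric mean signal of 165, so that defining markers of the labelled tissue were present. Of 4 adrenal markers on the array, Cyp11b1 and Star lay under it, while Cyp11a1 and Mrap lay above it. Of 5 adipocyte markers, Adipoq, Plin1 and Lep lay under it, while Cidec and Fabp4 lay above it. Fabp4 varied widely between rats, with 796, 1136 and 397 in S and 1336, 498 and 444 in congenic kidneys. The summed signals of the macrophage markers were 2692 to 2796 in S and 2901 to 3117 in congenic kidneys and did not overlap, whereas those of the 11 other marker lists overlapped. Of single probe sets, 2478 of the 15521 tested had groups that did not overlap, in either direction. In such linear sums the strongest markers weigh most. Among the markers of the thick ascending limb and distal tubule, Umod had a log2 difference, congenic minus S, of 0.25 and Slc12a1 of -0.26. In RNA of whole kidney, a change in the number of cells of a type and a change in RNA per cell cannot be told apart.

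The comparison asked whether the strains differed in the level of these genes. Among the 10 main probe sets, Adam15 had the largest difference, with congenic kidneys 1.33-fold higher, and Mmp24 was the other gene whose congenic values all lay above the S values. The other 8 genes had log2 differences from -0.39 to -0.01 with overlapping groups. Of the 10, 9 passed the filter on low signals and Mmp9 did not, so that its values come from a fit of all 31042 probe sets. In limma 0 of the 10 genes passed an adjusted p of 0.05, against 0.0% (0 of 15521) of all probe sets tested. At unadjusted p below 0.05 there was 1 gene of the 10, Adam15, against 10.3% of all probe sets tested (1602), so that this share was that of the arrays as a whole. The congenic values lay all above the S values for 2 of the 10 genes, against 7.98% of all probe sets tested, and all below for 0 of the 10, against 7.99%. Over both directions 2478 of 15521 probe sets had groups that did not overlap, so 2 among 10 genes does not set the family apart. A log2 difference above 0 was found in 2 of the 10 genes and in 48.2% of all probe sets tested.

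**Figure D1:**
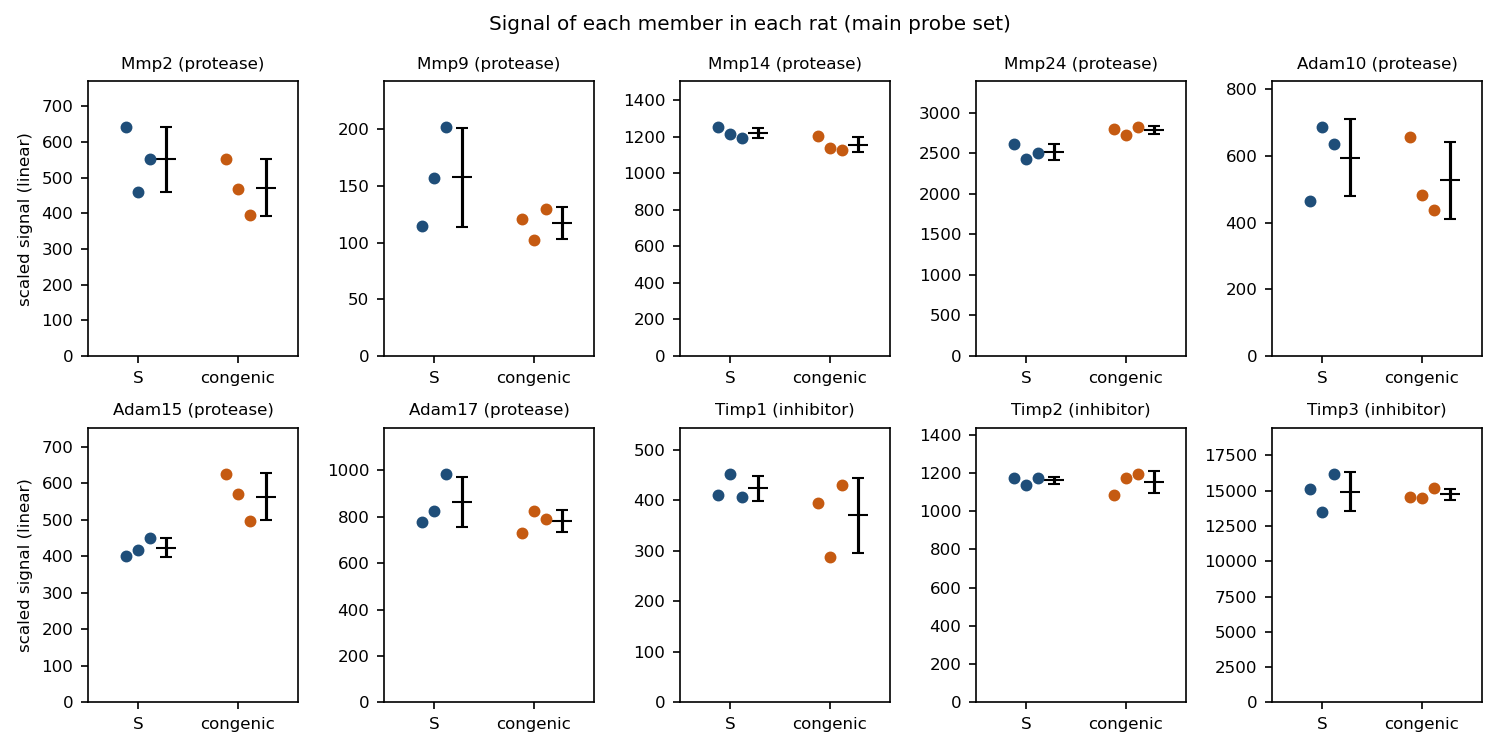
Scaled signal (linear axis from 0) of the main probe set of each gene in each rat, with S in blue and congenic in orange; bars give the mean and SD of 3 rats. The congenic points lie above all S points for Adam15 and Mmp24 and overlap with the S points for the other 8 genes.

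The gelatinases Mmp2 and Mmp9 cut denatured collagen and collagen IV of basement membranes. Mmp2 read 642, 460 and 554 in the 3 S rats and 554, 467 and 395 in the congenic rats. The groups overlapped, with the highest value in an S rat and the lowest in a congenic rat. Means were 552 ± 91.0 in S and 472 ± 79.5 in congenic kidneys (limma, adjusted p = 0.656). The log2 difference was -0.23 (SE 0.16) and its 95% interval ran from -0.58 to 0.13. The second Mmp2 probe set, under the filter, had a log2 difference of -0.02 with an interval of -0.98 to 0.95 and so carried little information. The Mmp2 difference was -0.11 without S replicate 1 and -0.10 without congenic replicate 3. With the arrays blocked by their title number (under or over 10) it was -0.34, with an unadjusted p of 0.0408 in place of 0.191 and an adjusted p of 0.513.

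Mmp9 read 115, 157 and 202 in S and 120, 102 and 130 in congenic kidneys. The highest values were those of S replicates 2 and 3, while S replicate 1 lay inside the congenic range. Its log2 difference was -0.39 with an interval of -1.08 to 0.29 (limma on all probe sets, adjusted p = 0.749; exact permutation p = 0.3). Its second probe set read 121, 117 and 182 in S and 86.6, 99.2 and 83.9 in congenic kidneys, with every congenic value under every S value. The log2 difference there was -0.61 with an interval of -1.28 to 0.06, and the adjusted p was 0.644. Both probe sets lay under the filter, and of all 31042 probe sets on the array 12.5% had groups that did not overlap and 7.93% had unadjusted p below 0.05. The difference of the main Mmp9 probe set was -0.20 without S replicate 3 and -0.61 without S replicate 1. Neutrophils store MMP9 in granules, and the 3 neutrophil markers with a probe set (S100a8, S100a9 and Csf3r) also lay under the filter. Their summed signal was 70.2 to 178 in S and 85.0 to 190 in congenic kidneys, so that the strains overlapped.

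Mmp14 and Mmp24 encode membrane-type enzymes. MMP14 activates the proform of MMP2 at the cell surface in a complex with TIMP2, and MMP24 is best known from the nervous system. Mmp14 read 1252, 1217 and 1193 in S and 1202, 1136 and 1127 in congenic kidneys. Congenic replicate 1 lay just above the lowest S rat, and the other congenic rats lay below all S rats. Its log2 difference was -0.08 (SE 0.10) and its interval ran from -0.28 to 0.12 (limma, adjusted p = 0.801). The second Mmp14 probe set, under the filter, had 0.03 with an interval of -1.11 to 1.18.

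Mmp24 read 2616, 2426 and 2499 in S and 2801, 2728 and 2819 in congenic kidneys. Every congenic rat was above every S rat, but by a small margin. Means were 2514 ± 95.6 and 2783 ± 47.7, a log2 difference of 0.15 (SE 0.08), an interval of -0.02 to 0.32 and an adjusted p of 0.545 in limma. The exact permutation p was 0.1, the smallest that 3 against 3 allows. Its second tested probe set had 0.11, with groups that overlapped (778 to 909 in S and 854 to 1014 in congenic kidneys). The third Mmp24 probe set, under the filter with a mean signal of 119, had 0.02 with an interval of -0.62 to 0.65 and so carried little information.

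Adam15 encodes a membrane-anchored ADAM that takes part in cell adhesion as well as proteolysis. It read 400, 418 and 451 in S and 626, 569 and 495 in congenic kidneys. The lowest congenic rat, replicate 3, stood above the highest S rat, replicate 3 of that strain, and the spread was wider among congenic rats. Means were 423 ± 26.1 in S and 563 ± 65.5 in congenic kidneys. The log2 difference was 0.41 (SE 0.14) and its 95% interval ran from 0.10 to 0.71, which is 1.08-fold to 1.64-fold. In limma the unadjusted p was 0.0119, the adjusted p was 0.339, and the exact permutation test gave its smallest possible p, 0.1. The gene therefore did not pass the adjusted threshold. Adam15 has a single probe set on the array, so no second measurement of it was at hand. Without congenic replicate 1 its log2 difference was 0.33 with an unadjusted p of 0.0618. In the 15 other alternatives with a test the unadjusted p was below 0.05, and the adjusted p ran from 0.235 to 0.555 over all 16. The macrophage markers, 5 of 7 tested genes positive, also did not overlap between strains in their summed signal, with Cd163 under the filter, and their part in the Adam15 difference was not tested.

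Adam10 and Adam17 encode the main sheddases of the cell surface: ADAM10 starts Notch receptor cleavage, and ADAM17 releases TNF and ligands of the EGF receptor. Adam10 read 464, 686 and 635 in S and 657, 484 and 438 in congenic kidneys. Each strain held both high and low rats, with S replicate 1 and congenic replicate 1 on the far side of their groups. Its log2 difference was -0.18 with an interval of -0.56 to 0.20 (limma, adjusted p = 0.756), and the second probe set had 0.10 with an interval of -0.33 to 0.53. The 2 probe sets of Adam10 thus had opposite signs, and neither interval excluded 0. Without S replicate 1 the difference of the main one was -0.35, and without congenic replicate 1 it was also -0.35, while it was -0.07 without S replicate 2 and -0.06 without congenic replicate 3.

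Adam17 read 779, 824 and 985 in S and 730, 823 and 789 in congenic kidneys. S replicate 3 was the highest rat, and the other 5 lay close together. Means were 863 ± 108 and 781 ± 46.8, a log2 difference of -0.14 with an interval of -0.40 to 0.12 (limma, adjusted p = 0.718). Without S replicate 3 the difference was -0.04. Set against Adam17 in the same rat, and centred on the 6 rats, log2 Adam15 was -0.21, -0.23 and -0.38 in S and 0.53, 0.22 and 0.08 in congenic kidneys. Set against Adam10 it was -0.04, -0.54 and -0.31 in S and 0.11, 0.42 and 0.36 in congenic kidneys. In both sets every congenic value exceeded every S value, and since these pairs were chosen after the values were seen, they are a description without a test.

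**Figure D2:**
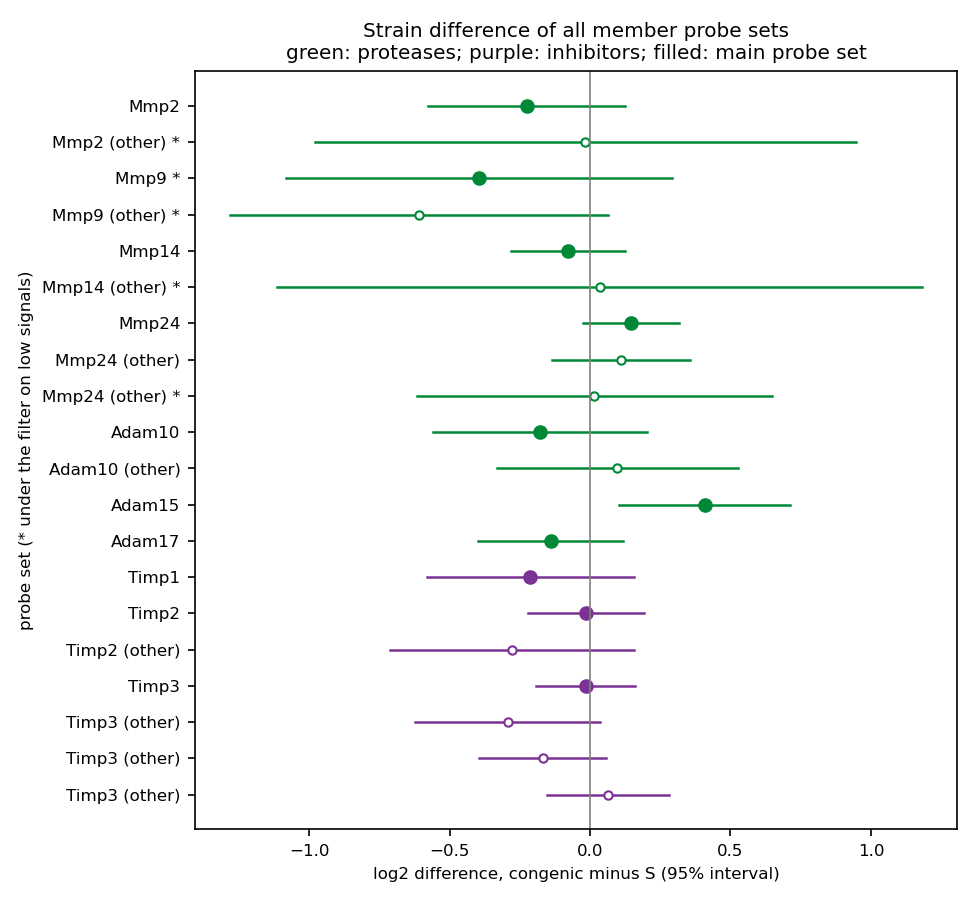
Log2 difference, congenic minus S, of all 20 member probe sets with its 95% interval, proteases in green and inhibitors in purple; filled points are main probe sets and asterisks mark those under the filter on low signals. The interval of Adam15, from 0.10 to 0.71, is the single one of the 20 that does not include 0.

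The strains overlapped for all 3 inhibitors. TIMP1 is the soluble inhibitor that is induced in injured kidney. Timp1 read 411, 452 and 407 in S and 394, 287 and 430 in congenic kidneys. Congenic replicate 2 was the lowest rat and congenic replicate 3 lay inside the S range. Its log2 difference was -0.21 with an interval of -0.58 to 0.16 (limma, adjusted p = 0.689), and it was -0.04 without congenic replicate 2.

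TIMP2 inhibits MMP2 and, bound to MMP14, also takes part in its activation. Timp2 read 1174, 1139 and 1172 in S and 1086, 1173 and 1196 in congenic kidneys. The S rats lay within the congenic range. The log2 difference was -0.01 (SE 0.10) and its interval ran from -0.22 to 0.19. The difference was 0.06 with arrays centred on their median and 0.03 without congenic replicate 1. The second Timp2 probe set had -0.28 with an interval of -0.71 to 0.16.

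TIMP3 binds to the matrix and is the inhibitor of ADAM17 among the TIMPs. Its main probe set read 15155, 13459 and 16201 in S and 14581, 14453 and 15169 in congenic kidneys, with all congenic rats inside the S range. The log2 difference was -0.02 with an interval of -0.19 to 0.16, which turned to 0.05 with arrays centred on their median and to 0.04 without S replicate 3. The 3 other probe sets of Timp3 had -0.29, -0.17 and 0.06, so that 2 of the 3 had the sign of the main one. The probe set with -0.29 read 7638, 8256 and 11314 in S and 9529, 6660 and 6107 in congenic kidneys. The groups overlapped there, and its interval was -0.62 to 0.04. Over all genes, the sign of the main probe set was shared by 7 of the 10 further ones.

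Proteases and inhibitors were then compared. The median log2 difference was -0.14 for the 7 proteases, of which 2 were higher and 5 lower in congenic kidneys, and -0.02 for the 3 inhibitors, all of which were lower. The median of all probe sets tested was -0.01, and their median absolute log2 difference was 0.12. The protease median minus the inhibitor median was -0.12, and it was 0.10 when each gene was given the mean of all its probe sets, so that its sign depended on the choice of probe set. It was 0.0074 without S replicate 2 and -0.02 without congenic replicate 3. In the main setting the protease median is the value of Adam17 and the inhibitor median that of Timp3. The -0.12 is therefore the change of Timp3 against Adam17, given below, with its sign turned, and not a separate result. With the medians taken within each rat, proteases minus inhibitors changed by -0.01 between strains.

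As levels of different probe sets cannot be set against each other, 6 pairs of an inhibitor and a protease it can block were followed as the log2 signal of the inhibitor minus that of the protease in each rat, centred on the 6 rats. For Timp2 and Mmp2 the values were -0.32, 0.12 and -0.11 in S and -0.22, 0.13 and 0.41 in congenic kidneys, a change of 0.21. The pair of Timp2 and Mmp14 had -0.05, -0.06 and 0.01 in S and -0.11, 0.08 and 0.12 in congenic kidneys, a change of 0.07. The strains overlapped in both pairs, with the widest spread among congenic rats. Timp1 against Mmp9 changed by 0.18, Timp3 against Adam17 by 0.12, Timp3 against Adam10 by 0.16 and Timp1 against Adam10 by -0.03. Several of these signs depended on 1 rat or on the probe set. Timp1 against Mmp9 changed by -0.04 without S replicate 3 and by 0.37 without S replicate 1. Timp3 against Adam10 changed by -0.02 without S replicate 2 and by -0.06 with the mean over all probe sets of a gene, and Timp1 against Adam10 ran from -0.27 without congenic replicate 3 to 0.11 without S replicate 1. Timp2 against Mmp2 changed by 0.06 without congenic replicate 3 and by -0.02 with the mean over all probe sets, a setting in which Timp2 against Mmp14 changed by -0.12. The change of Timp3 against Adam17 stayed positive, from 0.04 to 0.21 over the 17 alternatives. The strains overlapped in all 6 pairs, and the 2-sided exact permutation p ran from 0.3 to 0.9 over the 6 (smallest possible 0.1). No pair reached that smallest p. As this p cannot go below 0.1 with 3 rats per strain, the test cannot decide whether inhibitors shifted against proteases.

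**Figure D3:**
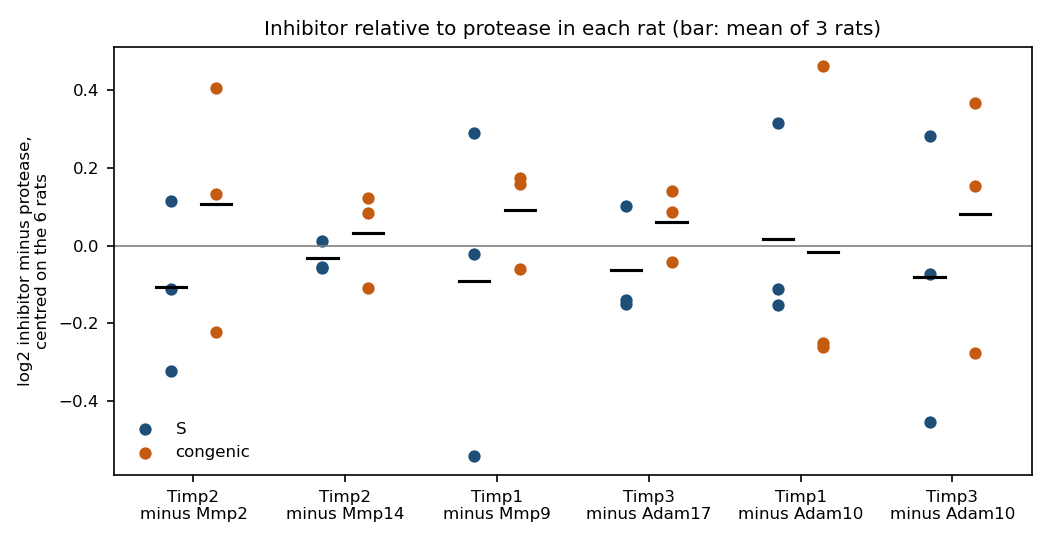
Log2 signal of an inhibitor minus that of a protease in each rat, centred on the mean of the 6 rats, for 6 pairs; blue points are S rats, orange points congenic rats and black bars the mean of 3. Blue and orange points overlap in every pair, and the changes of the means lie between -0.03 and 0.21.

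The other genes of the system were counted from lists of relatives, activators, partners and substrates. Of 4 further matrix metalloproteases tested, 1 was higher and 3 lower, and 0 reached unadjusted p below 0.05 (1 without S replicate 3). Mmp15, a membrane-type enzyme, read 497 ± 105 in S and 399 ± 88.3 in congenic kidneys (log2 difference -0.32), and Mmp17 had -0.05. Mmp23 had -0.23 in its main probe set but 0.14 and 0.37 in its 2 other tested ones, so that its direction depended on the probe set. A further 9 with a probe set, among them Mmp3, Mmp7, Mmp8, Mmp12 and Mmp13, lay under the filter. Of 7 further ADAMs and meprins tested, 2 were higher and 5 lower, and 1 reached unadjusted p below 0.05. That 1 was Mep1a, a brush border metalloprotease of the proximal tubule, which read 8621, 8775 and 9361 in S and 9890, 10517 and 9919 in congenic kidneys. The congenic rats all lay above the S rats, with a log2 difference of 0.18 and an adjusted p of 0.421 in limma. No gene of this list reached unadjusted p below 0.05 (0 of 7) after quantile normalisation or cyclic loess, without the variance trend, without S replicate 1 or without S replicate 2. Mep1b, the other meprin subunit gene, had -0.02. The summed proximal tubule markers read 79557 to 87422 in S and 87095 to 92636 in congenic kidneys, so that the strains overlapped. Of these 7 markers 5 were higher and 2 lower, the lower ones being Aqp1 at -0.09 and Cubn at -0.02. Their part in the Mep1a difference was not tested. Adam19 had -0.34 and Adam22 -0.32, both with overlapping groups.

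The further inhibitors and regulators tested were 4, all of them positive and with 0 at unadjusted p below 0.05 (1 with arrays centred on their median). Reck, a membrane-anchored inhibitor of several matrix metalloproteases, read 833 ± 96.0 in S and 929 ± 41.4 in congenic kidneys (log2 difference 0.16.) Cst3, which encodes cystatin C, an inhibitor of cysteine proteases, had 0.10, and Timp4 had 0.07.

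Furin and related convertases cut the inhibitory prodomain from membrane-type matrix metalloproteases and from ADAMs, and plasminogen activators start a proteolytic chain that activates secreted ones. Of 12 tested genes of these groups, 6 were higher and 6 lower, and 1 reached unadjusted p below 0.05. Furin read 1492, 1399 and 1844 in S and 1353, 1346 and 1275 in congenic kidneys. All congenic rats lay below all S rats, the S group being stretched by replicate 3, with a log2 difference of -0.24 and an adjusted p of 0.470 in limma. The count of 1 was 0 on leaving out congenic replicate 2 or 3, and 2 without S replicate 3, after quantile normalisation or cyclic loess and with the title number block. Pcsk6, another convertase gene, had -0.30, and Plat, the tissue plasminogen activator gene, had -0.20, each with congenic values all below the S values. The convertase gene Pcsk7 went the other way, with 0.27 and congenic values all above the S values. None of Pcsk6, Plat and Pcsk7 reached unadjusted p below 0.05. Of the 12 genes, 4 had groups that did not overlap, where 2478 of the 15521 probe sets tested did not overlap in either direction.

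Partners of ADAM10 and ADAM17 include iRhoms and tetraspanins, which help to carry the proteases to the cell surface, and other proteins that bind them. Of 10 tested, 5 were higher and 5 lower, and 1 reached unadjusted p below 0.05. Rhbdf1, which encodes the ADAM17 cofactor iRhom1, read 822, 646 and 670 in S and 847, 883 and 825 in congenic kidneys. Congenic replicate 3 lay just above S replicate 1, and the log2 difference was 0.26 (limma, adjusted p = 0.478). The count of 1 was 0 without the variance trend, with the title number block, and on leaving out S replicate 2, congenic replicate 2 or congenic replicate 3. It was 2 without S replicate 1, with array weights and with the filter at the 25th percentile, and 3 without the filter or with arrays centred on their median. Frmd8, whose product stabilises the iRhom complex, read 1066.0, 1046 and 958 in S and 1066.3, 1233 and 1277 in congenic kidneys (log2 difference 0.22). Tspan33, a tetraspanin of the group that escorts ADAM10, had 0.16 in its main probe set and -0.25 and -0.19 in its 2 others. Of the 10 partners tested, 3 had groups that did not overlap (Rhbdf1, Frmd8 and Tspan33), where 2478 of the 15521 probe sets tested did not overlap in either direction.

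Among 18 tested genes whose products are shed by ADAM10 or ADAM17, 7 were higher and 11 lower, with 0 at unadjusted p below 0.05 and a median of -0.03. Egf, whose membrane precursor is abundant in the distal tubule, read 14608, 14415 and 15196 in S and 13254, 14083 and 12788 in congenic kidneys. Its groups did not overlap, and its log2 difference was -0.14. Cdh1, the E-cadherin gene, had -0.35 with overlapping groups, and App, the amyloid precursor gene, had 0.14. The 2 other tested probe sets of App had 0.22, with an unadjusted p of 0.0161, and 0.09. The count of 0 was 1 after quantile normalisation or cyclic loess, with arrays centred on their median, with the title number block and without congenic replicate 1.

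Of 23 tested collagens, laminins and other matrix proteins that matrix metalloproteases can cut, 7 were higher and 16 lower, and 5 reached unadjusted p below 0.05, all of them lower, with a median of -0.09. The share of 21.7% of genes stands beside 10.3% of all probe sets tested, which were counted by probe set and not by gene. In limma 0 passed the adjusted threshold. The list was chosen with earlier results of these data known, and among the 5 Col4a1, Col4a2 and Col4a5 encode related chains of collagen IV. The share is therefore a description and not a separate result. Col4a1, a chain of basement membrane collagen, read 6298, 6159 and 7422 in S and 5515, 5258 and 5102 in congenic kidneys, with no overlap. Its log2 difference was -0.32 (adjusted p = 0.229), while its second tested probe set had -0.17. Col4a5 had -0.25 with no overlap, and Hspg2, the perlecan gene, had -0.45 with groups that overlapped. Of the 23 genes, 8 had groups that did not overlap, where 2478 of the 15521 probe sets tested did not overlap in either direction. Among these 8 Lama5 went the other way, with 0.18 and congenic values all above the S values. Of 4 smooth muscle markers tested, 3 had lower means in congenic kidneys, with a median of -0.19. The log2 differences were -0.36 for Acta2, -0.21 for Myh11 and -0.16 for Des, while Tagln was slightly higher at 0.03. The summed signal of the 5 smooth muscle markers on the array, with Cnn1 under the filter, read 2801 to 3432 in S and 2648 to 2977 in congenic kidneys. Of the 8 stromal markers, 5 of which are also in the matrix list, 6 had lower means, among them Pdgfrb at -0.33 and Thy1 at -0.29. The second tested probe set of Thy1 had 0.18, and the markers Lum, at 0.16, and Col1a2, at 0.05, were higher. The summed signal of the 8 stromal markers read 23350 to 27527 in S and 22849 to 25185 in congenic kidneys. Both summed signals overlapped between strains, and their part in the matrix values was not tested. Col4a1, Col4a5 and Hspg2 had lower adjusted p values in limma, 0.229 to 0.302, than any of the 10 members.

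**Figure D4:**
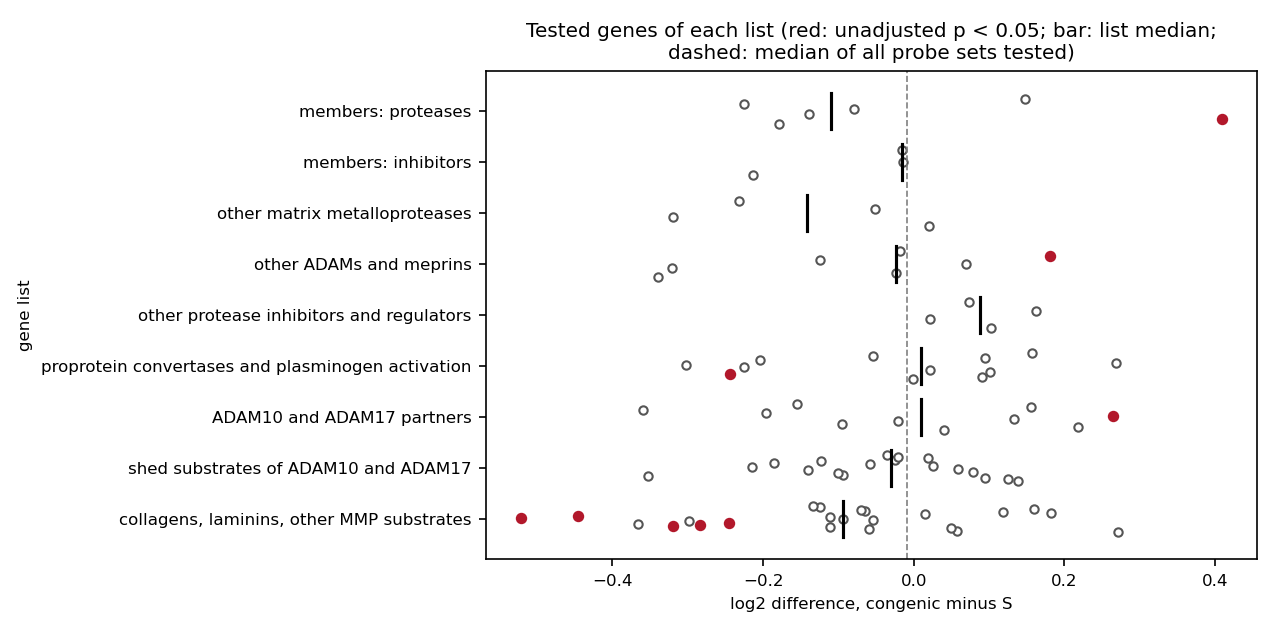
Log2 difference, congenic minus S, of each tested gene of the member groups and of the lists of related genes; red points have unadjusted p below 0.05 in limma, black bars are list medians and the dashed line is the median of all probe sets tested (-0.01). Red points stand on the right for Adam15, Mep1a and Rhbdf1 and on the left for Furin and 5 matrix genes.

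The genes whose pattern over the 6 rats was most like that of Adam15 were sought among 9333 other tested genes by Euclidean distance of centred log2 signals. Nearest was Pnpla7, a lysophospholipase gene, at a distance of 0.13, with 387, 393 and 407 in S and 582, 488 and 449 in congenic kidneys. Nkap, a transcriptional repressor gene, followed at 0.14, and Pld4, an endolysosomal nuclease gene of immune cells, at 0.15. Like Adam15, all 3 were highest in congenic replicate 1 and lowest of the congenic rats in replicate 3. The search selects for this order of rats, so it is not a separate result.

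As an example of the promoters of these genes, that of Adam15, the member of smallest unadjusted p, is shown from the RefSeq table of build GRCr8, in which 7 of the 10 genes had an entry. Mmp2, Mmp9 and Mmp14 had none, so the motif counts below do not cover them. The window covers 250 bases before to 50 after the annotated start, at chr2:177062800-177063099 on the minus strand, and is printed 5′ to 3′ with GC boxes (GGGCGG) in capitals.
Adam15: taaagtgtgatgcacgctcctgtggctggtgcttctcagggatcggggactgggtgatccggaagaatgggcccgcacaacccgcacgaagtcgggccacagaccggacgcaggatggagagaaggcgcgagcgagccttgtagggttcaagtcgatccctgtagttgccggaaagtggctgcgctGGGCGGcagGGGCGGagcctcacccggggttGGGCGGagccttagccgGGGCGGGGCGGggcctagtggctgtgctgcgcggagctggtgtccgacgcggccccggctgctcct
The window holds 5 matches to GGGCGG, all in the printed strand, of which the last pair overlap by a base, and its GC content is 68.0%. Each of the 7 promoters had at least 1 match on either strand, where 33.1% of 33469 promoters of the same length did. TATAAA was found in 0 of the 7 (14.2% of all promoters) and TGANTCA, the AP-1 motif, in 0 (7.33% of all), while CCAAT was found in 2, Adam10 and Timp3 (37.5% of all). Both strands were searched for each motif. The array data say nothing about the use of these letters.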

How the data were processed

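The authors deposited linear intensities per probe set, made with GCOS 1.4 according to the submitters' processing notes. For software settings and detection calls the sources used here give nothing. Each array had a mean of 500.2 once the top and bottom 2% of its values were trimmed, so no further scaling was applied.

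Of 31099 probe sets, 57 array controls were left out. Values under the 10th percentile of the table (12.3) were raised to it before log2. The 15521 probe sets with a mean log2 signal above the median were tested with limma 3.58.1 in R 4.3.3 (intensity trend), for congenic minus S, and p-values were adjusted over them by Benjamini-Hochberg. The 5 member probe sets under the filter were taken from the same fit run on all 31042. The procedure was tested on simulated data, in which all planted changes were larger than the 1.33-fold difference of Adam15. That test therefore does not show whether differences of this size would be found. Precision is limited by the 6 arrays, with a median standard error of 0.14 (log2).

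Symbols came from the array annotation, updated through Entrez identifiers in the GRCr8 table. A single symbol named 20826 probe sets, 436 had several symbols and 9780 had none. For a listed gene the tested probe set with the highest mean signal was used. All members are named, then from each list up to 3 tested genes of smallest p, and the 3 genes nearest in pattern to the member of smallest p. A few further genes, such as Mep1b and Pcsk7, are named beside these.

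The members and lists were chosen with earlier results of these data known. The p-values weigh a strain difference against the spread between arrays of a strain. With 1 array per rat, variation between animals and between arrays cannot be told apart. Alternatives changed the floor (1st percentile, or a pseudocount of 16), the filter (none, or the 25th percentile), the normalisation (quantile, median, cyclic loess), the variance trend, array weights, a title number block (under or over 10) and the probe set, or left out an array. Figures were drawn with matplotlib 3.10.9.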

Additional observations from a re-analysis of the deposited data

How the results depend on the processing

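The number of probe sets past adjusted p 0.05, which was 0, was 9 with arrays centred on the median and 0 to 41 with 1 array left out (41 without S replicate 1; leaving out congenic replicate 1 gave 6 and congenic replicate 3 gave 3). None of the 10 members passed in any of these fits. The number of members at unadjusted p below 0.05, which was 1, was 2 without the filter and with median centring (Mmp24 added), 2 with the title number block (Mmp2 added), and 0 to 1 with 1 array left out. The protease median minus the inhibitor median was 0.10 with the mean over all probe sets of a gene and -0.10 to 0.0074 with 1 array left out. The log2 difference of Timp2 turned to 0.057 with median centring and ran from -0.042 to 0.028 with 1 array left out. That of Timp3 turned to 0.055 with median centring and ran from -0.089 to 0.045 with 1 array left out. Median centring adds the same amount to every log2 difference. That of Mmp14 thus moved from -0.080 to -0.0090 and that of Adam15 from 0.41 to 0.48. The cause of the changes on leaving out an array was not tested. The 8 other members kept their sign in all 17 alternatives, Adam15 between 0.33 and 0.50. No paired analysis was possible because the labels give the strains no shared replicate numbers. Low signals, as for Mmp9, could not be separated from background without detection calls.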
